A study of Mus musculus with 46 samples.

Results

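The testes of mice given 0.1 µg/ml acrylamide in their drinking water for 6 months were compared with the testes of control mice on water without it. The arrays were chosen by their titles: 3 arrays labelled with this dose and time and 3 labelled as control at the same time, 6 of the 46 arrays of the study. All mice were adult male Swiss mice, and both groups were 11 to 12 months old when the testes were taken. RNA from single testes, with a biotin label, was read on Illumina mouse ref-8 v2 bead arrays, 1 array per testis. The study also held testes of mice given 0.001, 0.01, 1 or 10 µg/ml and testes taken after 1 or 12 months, which made 18 groups. The labels do not say that each testis came from another mouse. The p-values below therefore rest on the spread between testes of the same group, pooled over the 18 groups and 46 arrays.

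Acrylamide is a small reactive molecule that forms in starchy food during frying and baking. In the liver and in the testis the enzyme CYP2E1 turns it into glycidamide, which binds DNA, and glutathione transferases help to clear both compounds. In the testis, spermatogonia give rise to spermatocytes, which pass through meiosis and become round spermatids. These elongate, grow a tail and repackage their chromatin first with transition proteins and then with protamines, and many of their transcripts are stored before they are translated. Sertoli cells nurse the germ cells inside the tubules, peritubular myoid cells surround the tubules, and Leydig cells between them make testosterone.

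After 6 months at 0.1 µg/ml, 929 of 15419 tested probes passed an adjusted p of 0.05 against control, which is 6.03% of them. Of these, 486 probes were higher (3.15% of those tested) and 443 were lower (2.87%), in a limma fit of the processed log2 values of all 46 arrays. After cyclic loess of the same values the split was 313 higher and 495 lower. The falls were larger than the rises, with a median of -0.53 against 0.39 on the log2 scale, where a difference of 1 is 2-fold. A fall of more than 1 was seen for 40 called probes and a rise of more than 1 for 3. The called probes belonged to 840 named genes, and 8 of these had called probes in both directions. Taking the brightest probe of each of 10667 genes, 410 genes rose (3.84%) and 287 fell (2.69%). The treated and control arrays did not overlap for 917 of the 929 called probes. Over all tested probes they did not overlap for 2988 with the treated arrays higher (19.4%) and 2652 with them lower (17.2%), so this alone sets few probes apart. The number of arrays limited the precision: 92 of the 929 calls held with each of the 6 arrays left out in turn, and 310 were lost with each of them left out. The counts then ran from 192 (without replicate 3 of the control) through 206, 260, 273 and 377 (without treated replicate 2, control replicate 1 and treated replicates 1 and 3) to 402 (without replicate 2 of the control). Of the 97 called genes named in the text, with 98 called probes, 24 probes kept their call under all of these 6 and 23 under none of them. Of these genes, 26 had 40 further tested probes, of which 3 passed in the same direction and 37 did not pass, with 26 of the 40 of the same sign as the named probe.

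**Figure D1:**
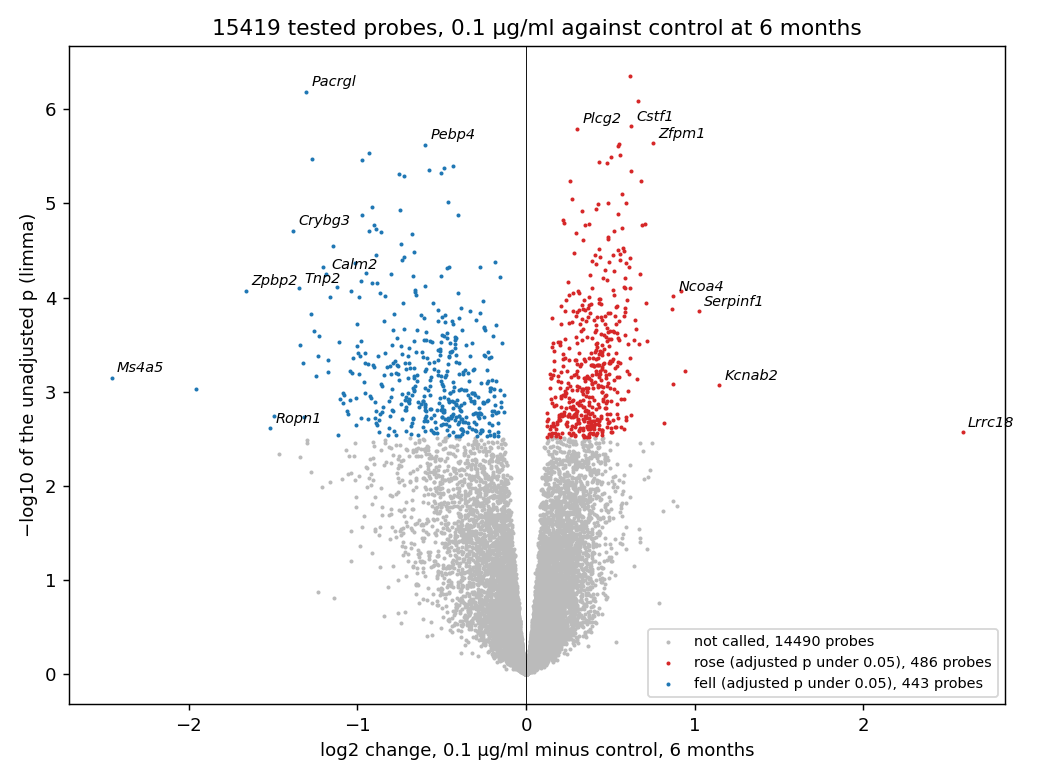
Log2 change of 0.1 µg/ml minus control at 6 months (x axis) against −log10 of the unadjusted limma p (y axis) for 15419 probes, 1 point each, with 486 rises in red and 443 falls in blue. Falls reach further from 0 than rises, apart from Lrrc18 at 2.59.

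The place of an array in the study moves with this comparison, and its part in the results could not be separated. The labels number the arrays from 1 to 46. The control arrays are numbers 18 to 20, the arrays of 0.01 µg/ml are 24 to 26 and those of 0.1 µg/ml are 27 to 29. Bead arrays of this kind hold 8 samples on a slide. The labels name no slide, so arrays were set in runs of 8 consecutive numbers: controls and replicate 1 of 0.01 µg/ml then lie in 17 to 24, and replicates 2 and 3 of 0.01 µg/ml with all of 0.1 µg/ml in 25 to 32. For each of the 929 called probes, the point midway between the control mean and the 0.1 µg/ml mean was taken. Replicate 1 of 0.01 µg/ml lay on the treated side of it for 35 probes (3.77%), whereas replicate 2 did so for 794 (85.5%) and replicate 3 for 807 (86.9%). The 3 testes of 0.01 µg/ml had the same dose and time, so the step falls inside a dose group, between array numbers 24 and 25. The arrays of 0.001 µg/ml, which lie in 17 to 24, were on the treated side for 32 to 107 probes, and those of 1 and 10 µg/ml, with numbers of 30 and above, for 709 to 840. The median intensity before normalization also differed between these arrays. It was 155 to 167 in the 3 controls, 166.1 to 209.3 at 0.001 µg/ml and 221 in replicate 1 of 0.01 µg/ml, 133 and 118 in replicates 2 and 3, 109 to 127 in the 3 arrays of 0.1 µg/ml and 107.8 to 116.9 at 1 µg/ml. At 10 µg/ml it was 154, 144 and 131, with the first of these close to the controls, while these arrays were on the treated side for 782, 839 and 840 of the probes.

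**Figure D2:**
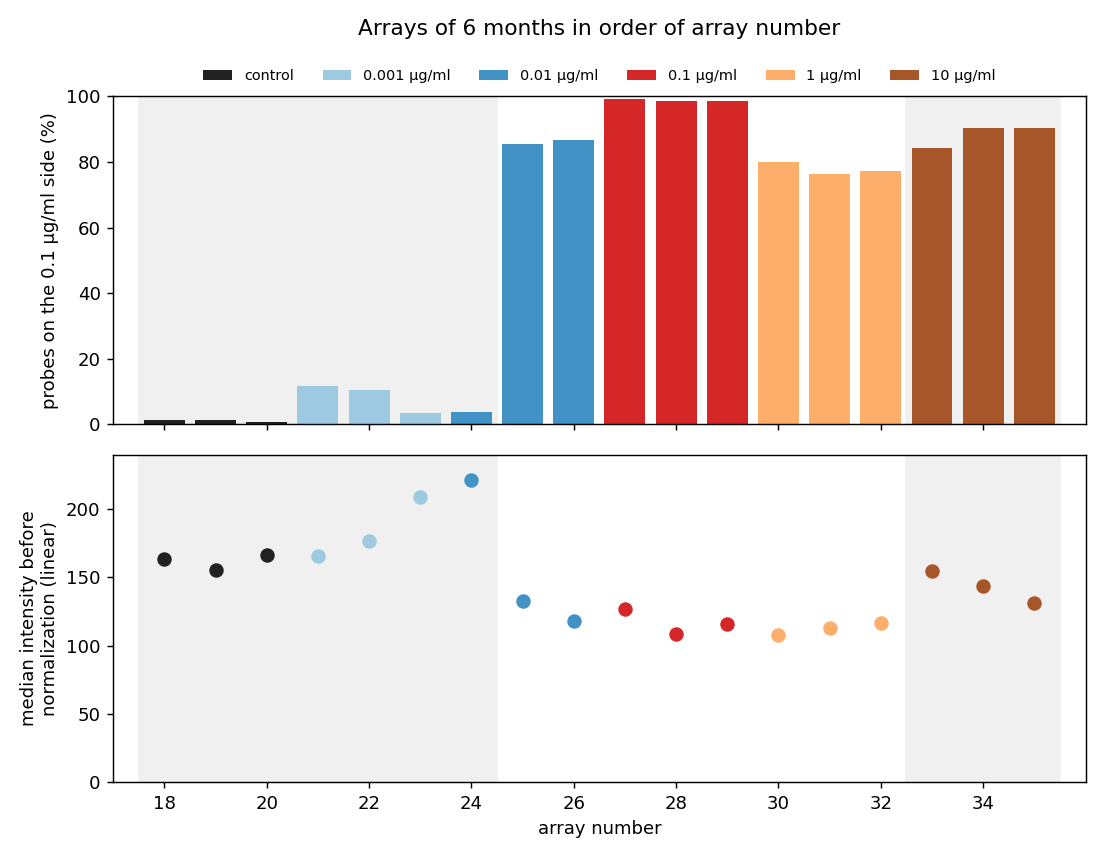
The 18 arrays of 6 months by array number (x axis); grey marks runs 17 to 24 and 33 to 40, white the run 25 to 32. Bars give the percent of the 929 called probes on the 0.1 µg/ml side of the midpoint, and points the median intensity before normalization on a linear scale; both differ between arrays 24 and 25, inside the 0.01 µg/ml group, and the intensity at 10 µg/ml is back at 131 to 154.

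With the run of array numbers as a fixed term in the model, 0 probes passed with limma (284 had an unadjusted p under 0.05). Only the 0.01 µg/ml group spans these 2 runs, so each value of this fit equals the difference of 0.1 µg/ml from replicates 2 and 3 of 0.01 µg/ml plus that of replicate 1 of 0.01 µg/ml from the controls. It therefore depends on a single array, number 24, which had the highest median intensity of the 18 arrays. The errors were wider, with a median standard error of 0.16 against 0.094. Of the 929 changes, 573 kept their sign in it (61.7%). Its 95% interval held 0 for 892 of them and held the change of the pooled fit for 443. Within numbers 25 to 32, the 3 arrays of 0.1 µg/ml were also set against replicates 2 and 3 of 0.01 µg/ml, and 0 probes passed (594 at an unadjusted p under 0.05). In that comparison the called rises had a median of 0.057 and the called falls of -0.040. Both sets were called with the same 0.1 µg/ml arrays, which favours these signs. The values that follow are from the fit without this term unless another is named, and dose and array number cannot be told apart in them. The run of 25 to 32 holds no control. A value within it therefore compares 0.1 with 0.01 µg/ml and cannot separate dose from array number for 0.1 µg/ml against control.

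Several of the genes with the largest falls are known from spermatids and sperm. Tnp2 encodes transition protein 2, which replaces histones in the elongating spermatid. Its level was 11.76, 11.82 and 11.68 in the controls and 10.27, 10.47 and 10.49 at 0.1 µg/ml. The groups lay far apart, and the difference was -1.34 ± 0.29 (standard error; adjusted p = 0.0114). At 0.01 µg/ml its level was 12.00 in replicate 1 and 10.56 and 10.67 in the others, so 1 array of that group was at the control level and 2 were near the treated level. Pacrgl had one of the smallest p values of all. It was at 9.93, 10.26 and 10.29 in the controls and at 8.96, 8.81 and 8.80 in the treated testes, a change of -1.30 ± 0.21 (adjusted p = 0.00342). Its 0.01 µg/ml arrays were at 10.22, 9.18 and 8.93, with the same split.

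The promoters of these 2 genes are shown because Crem, a transcription factor of round spermatids that binds the cAMP response element, was itself among the genes that fell. The element is spelled TGACGTCA and reads the same on both strands. In the promoter window of Pacrgl (RefSeq, GRCm38.p6, chr5:48372142-48372441, plus strand, 250 bases before the start and 50 from it) the capitals mark a full match that begins 49 bases before the start. The window of Tnp2 (chr16:10788606-10788905, minus strand) holds no match and is printed without capitals.
Pacrgl: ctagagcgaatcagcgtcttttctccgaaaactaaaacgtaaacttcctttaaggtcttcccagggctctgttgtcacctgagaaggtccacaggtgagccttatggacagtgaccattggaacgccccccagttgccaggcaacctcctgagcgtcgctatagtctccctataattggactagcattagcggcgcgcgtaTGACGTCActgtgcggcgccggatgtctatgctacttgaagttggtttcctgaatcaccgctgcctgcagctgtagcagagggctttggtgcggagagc
Tnp2: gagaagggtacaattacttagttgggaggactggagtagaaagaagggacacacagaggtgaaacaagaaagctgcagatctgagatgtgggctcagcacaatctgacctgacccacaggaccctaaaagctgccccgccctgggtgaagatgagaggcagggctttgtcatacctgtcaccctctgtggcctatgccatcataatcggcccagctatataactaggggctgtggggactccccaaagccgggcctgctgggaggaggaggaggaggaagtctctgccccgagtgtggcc

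A full match was found in 588 of 32851 promoter windows of the mouse (1.79%). The core TGACG, on either strand and inside the full element where that is present, was in 6837 of them (20.8%). The falls were represented by 18 genes, the 14 with the largest falls and the spermatid genes Spz1, Gpx4, Crem and Spaca1. The spermatid genes Oaz3, Pgam2 and Clgn also fell and were not among the 18. Of the 18 genes, 13 had a promoter window, with 25 windows in all. The full element was in 1 of these windows and the core in 11 (44.0%). Counted by gene, the core was in 6 of the 13. Of the 14 genes with the largest rises, 12 had a window, 18 windows in all, with the full element in 0 and the core in 7 (38.9%). Counted by gene, the core was in 6 of these 12, so the falls did not carry it more often than the rises. Windows of 1 gene can overlap. A match describes the sequence and is no measured binding site. Crem itself was at 9.61, 9.31 and 9.47 in the controls and 8.94, 8.81 and 8.99 at 0.1 µg/ml, a change of -0.55 ± 0.14 (adjusted p = 0.0231). Its 3 treated testes lay below its 3 controls, and its 0.01 µg/ml arrays were at 9.63, 8.95 and 9.05. These values are those of its brightest probe, and 3 dimmer tested probes of Crem, at 0.02, -0.21 and -0.06, did not pass.

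Ms4a5, a membrane protein gene transcribed in late spermatids, had the largest fall. It was at 11.70, 11.87 and 10.36 in the controls and 8.93, 8.79 and 8.82 at 0.1 µg/ml. Control replicate 3 was well below the other controls and still above each treated array. The change was -2.46 ± 0.65 (adjusted p = 0.0249). It varied widely over the whole study, from 8.11 to 12.19 over 46 arrays, and at 1 µg/ml it spanned 8.84 to 10.82. Zpbp2, an acrosomal protein that binds the zona pellucida, was at 10.76, 10.34 and 10.40 in the controls and 8.67, 8.83 and 9.02 in the treated testes, -1.66 ± 0.37 (adjusted p = 0.0115). Its brighter probe also fell by 0.92 ± 0.26 (adjusted p = 0.0317). Replicate 1 of 0.01 µg/ml was the highest of these arrays at 11.21, and replicates 2 and 3 were at 9.17 and 8.93.

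Ropn1, the ropporin of the fibrous sheath of the sperm tail, was at 12.09, 11.62 and 11.46 in the controls and at 10.24, 9.99 and 10.38 at 0.1 µg/ml, -1.52 ± 0.46 (adjusted p = 0.0446). That call did not hold with any 1 of the 6 arrays left out. Spz1, a basic helix-loop-helix transcription factor of the testis, stood at 12.82, 12.73 and 12.82 against 11.75, 11.87 and 11.64, a tight separation with a difference of -1.04 ± 0.23 (adjusted p = 0.0115). Calm2, one of the genes for calmodulin, fell from 11.97, 11.84 and 11.75 to 10.60, 10.73 and 10.67 (-1.19 ± 0.25, adjusted p = 0.00969). For Tnp2, Pacrgl, Spz1 and Calm2 the call held with each of the 6 arrays left out.

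**Figure D3:**
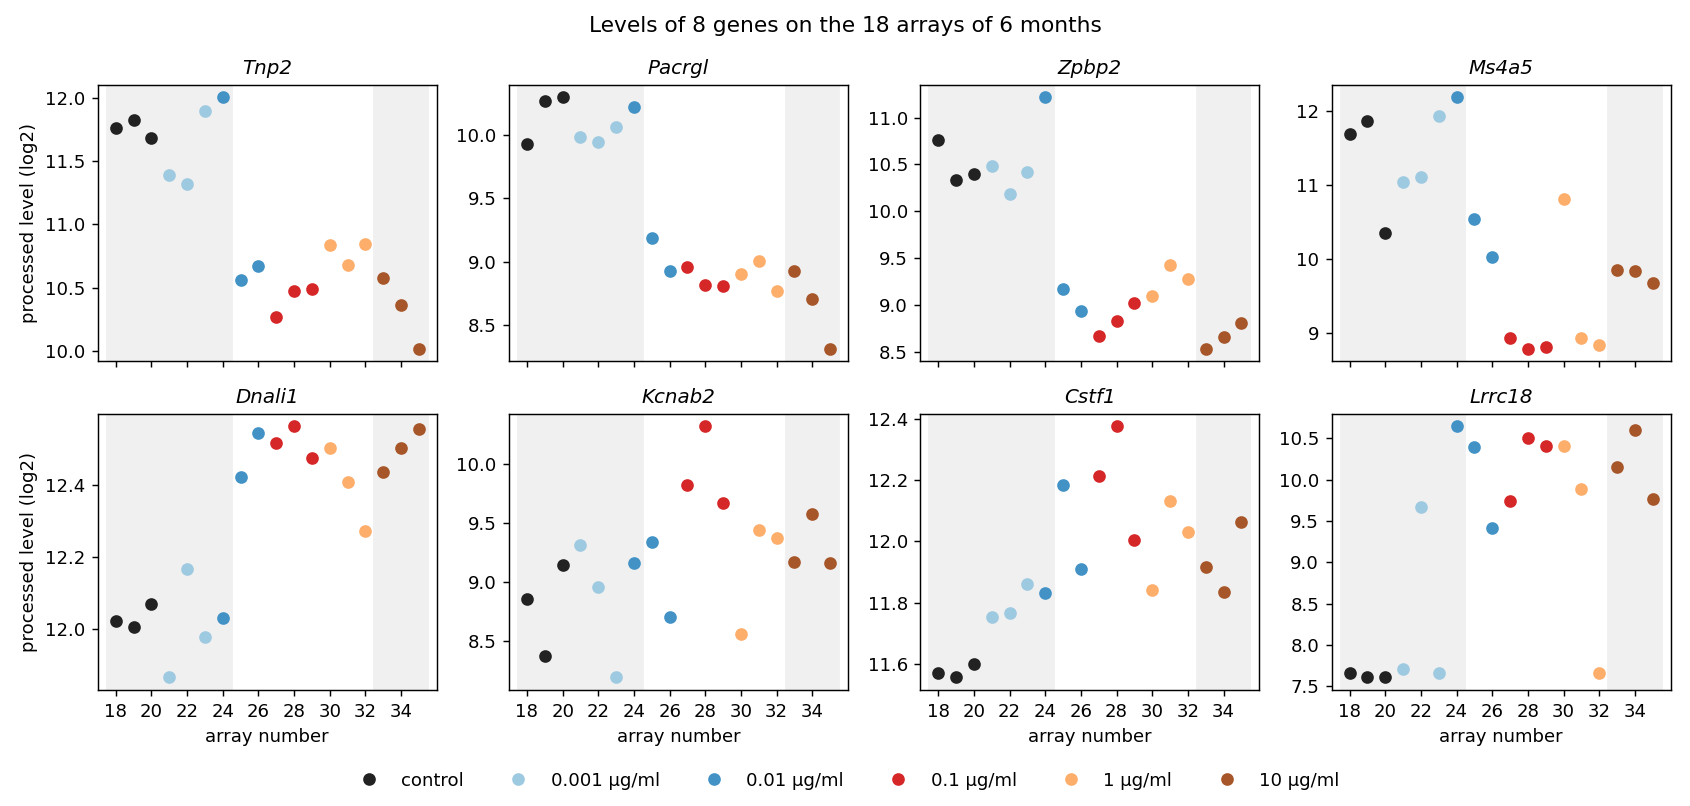
Processed log2 level (y axis) of 8 genes on each of the 18 arrays of 6 months (1 point per testis) by array number (x axis), coloured by dose, with grey for runs 17 to 24 and 33 to 40. Tnp2, Pacrgl and Zpbp2 drop and Dnali1 rises between arrays 24 and 25, Kcnab2 and Cstf1 are high in the 0.1 µg/ml arrays without such a sharp step, and Lrrc18 is either near 7.6 or over 9.4.

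The other large falls were those of Crybg3 (-1.38), the Hsp70-interacting protein St13 (-1.32), the receptor-type tyrosine phosphatase Ptpre (-1.32), Odf2 of the outer dense fibres (-1.28), the integrin Itgae (-1.26), the general transcription factor subunit Gtf2e2 (-1.23), the mitochondrial glutaredoxin Glrx2 (-1.23) and Hsd3b2 (-1.20). For several of them other probes of the gene did not move alike. Odf2 had 3 further tested probes, at 0.00, 0.32 and -0.28, and 0 of them passed. Itgae had 2 brighter probes at 0.11 and -0.28, the brighter probe of Gtf2e2 was at -0.33, and a further tested probe of Ptpre was at 0.13. Dimmer probes of Glrx2, at -0.48 and -0.07, did not pass. The changes of these genes therefore rest on 1 probe each. Hsd3b2 belongs to the family that converts pregnenolone to progesterone. Its called probe was at 10.81, 10.77 and 10.73 in the controls and 9.48, 9.70 and 9.52 in the treated testes, while its 5 other probes were among those left out as dim. All 14 of the largest falls had replicate 1 of 0.01 µg/ml on the control side of the midpoint, and 13 had both its replicates 2 and 3 on the treated side. With the run of array numbers as a fixed term, 9 of the 14 came out above 0. Set against replicates 2 and 3 of 0.01 µg/ml, their changes had a median of -0.14. The 14 falls were chosen by the same 0.1 µg/ml arrays, so values below 0 were favoured by that choice.

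Rises were smaller, except for Lrrc18, a leucine-rich repeat gene expressed in the testis. Lrrc18 was at 7.66, 7.61 and 7.61 in the controls and at 9.74, 10.50 and 10.41 at 0.1 µg/ml, a difference of 2.59 ± 0.79 (adjusted p = 0.0469). The call was lost with any 1 of the 6 arrays left out. Over the 46 arrays it lay between 7.61 and 10.65 with a gap of 1.70 in between, 33 arrays above the gap and 13 below it. Of the same month, 2 of the 3 arrays of 0.001 µg/ml and 1 of the 3 of 1 µg/ml were low as well. Low arrays also occurred at 0.001, 0.01, 0.1 and 10 µg/ml at 1 month, and at 12 months in 1 of the 2 controls, 1 of the 2 of 0.001 µg/ml and the 1 array of 10 µg/ml. The 3 controls at 6 months were all in the low class, and replicate 1 of 0.01 µg/ml was in the high class at 10.65.

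Kcnab2, a regulatory subunit of voltage-gated potassium channels, was at 8.85, 8.38 and 9.14 in the controls and 9.82, 10.32 and 9.67 in the treated testes. It rose by 1.15 ± 0.31 (adjusted p = 0.0275). The 3 arrays of 0.01 µg/ml were at 9.16, 9.34 and 8.70, all below the treated ones. Within numbers 25 to 32 the difference from replicates 2 and 3 of 0.01 µg/ml was 0.91, and with the run as a fixed term the change was 1.28 with a 95% interval from 0.13 to 2.44. Cstf1, a subunit of the cleavage stimulation factor that helps to form the 3′ ends of mRNAs, was at 11.57, 11.56 and 11.60 in the controls and 12.21, 12.38 and 12.00 in the treated testes (0.62 ± 0.10, adjusted p = 0.00342). With the run as a fixed term its change was 0.41 with an interval from 0.01 to 0.81. Ncoa4, the receptor that brings ferritin to autophagy, was at 8.88, 8.52 and 8.75 against 9.61, 9.55 and 9.60 (0.87 ± 0.19, adjusted p = 0.012). Its value in that model was 0.67, with an interval from -0.04 to 1.38. None of these 3 passed the adjusted threshold in that model, and the intervals are not adjusted for the number of probes. Over the 929 called probes such intervals held 0 for 892. The 3 genes were chosen by the same treated and control arrays.

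Serpinf1, the secreted pigment epithelium-derived factor, was at 8.99, 9.07 and 9.27 in the controls and 10.29, 9.63 and 10.48 at 0.1 µg/ml. It rose by 1.02 ± 0.23 (adjusted p = 0.0139). In the 0.01 µg/ml group it was at 9.50 in replicate 1 and at 10.39 and 10.32 in the other 2. Zfpm1, a cofactor of GATA transcription factors, rose by 0.75 ± 0.13 (adjusted p = 0.00342), and Cdkn1c, an inhibitor of cyclin-dependent kinases, by 0.55 ± 0.09, from 8.43, 8.46 and 8.39 to 8.99, 8.95 and 8.98. The further large rises were those of Adat2 (0.95), Dym (0.92), Hap1 (0.87), Afap1 (0.87), the retinol saturase Retsat (0.82), Cyb5r2 (0.72), Mllt11 (0.71), Akap8l (0.71) and Mtch1 (0.69). A further probe of Afap1 was also called (0.38), whereas another at 0.28 did not pass. Dimmer probes of Mtch1 (0.08) and Hap1 (0.06) did not pass. Among the smallest p values were also Mrnip (0.61), Plcg2 (0.30), Prpf40b (0.55) and Pebp4 (-0.60). Prpf40b had 2 dimmer probes at -0.26 and -0.12, and Pebp4 a brighter one at 0.08. With the run of array numbers as a fixed term, 13 of the 14 largest rises stayed above 0. Against replicates 2 and 3 of 0.01 µg/ml 12 of the 14 were above 0, with a median of 0.30. The 14 were chosen by the same 0.1 µg/ml arrays, so values above 0 were favoured in both by that choice. Over all called rises the median against these replicates was 0.057.

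Gene lists of germ cells were then read by the brightest probe of each gene, beside 3.84% that rose and 2.69% that fell over all genes. In the list of elongating spermatids and sperm tail, 7 of 31 tested genes fell and 1 rose, with a median change of -0.27 against 0.021 over all genes tested. The falls were those of Ms4a5, Ropn1, Tnp2 and Spz1 and of Oaz3, the testis antizyme (-0.70), Gpx4, the selenoperoxidase of the midpiece capsule (-0.59), and Pgam2, a phosphoglycerate mutase (-0.57). A dimmer probe of Gpx4 was at 0.13 and did not pass. Prm1, the protamine that follows the transition proteins on sperm DNA, went the other way, from 13.79, 13.81 and 13.69 to 14.27, 14.31 and 14.33 (0.54 ± 0.14, adjusted p = 0.0218). Its 0.01 µg/ml arrays were at 13.45, 14.36 and 14.23. Other genes of this list did not pass, with Tnp1 at -0.75, Akap4, the main fibrous sheath protein, at -0.27, Odf1 at -0.31 and Smcp at -0.01. In the fit with the run as a term the median of the list was -0.066, and against replicates 2 and 3 of 0.01 µg/ml it was -0.00082.

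Round spermatids were represented by 32 tested genes with a median change of 0.036, of which 4 fell and 2 rose. Among all genes tested, 2.69% fell and 3.84% rose. Beside Crem and Zpbp2, the chaperone Clgn (-0.56) and Spaca1 of the acrosome membrane (-0.48) fell, and the kinase Tssk6 (0.42) and the acrosomal protein Spaca3 (0.34) rose. Of 25 spermatocyte genes, Ldhc, the germ cell lactate dehydrogenase (0.40), and Ybx2, an mRNA-storing protein (0.33), rose and Tcte3, a dynein light chain (-0.40), fell, and the median was -0.018. Dimmer probes of Ybx2 (-0.41), Ldhc (0.30 and 0.05) and Tcte3 (0.02) did not pass. Among 17 spermatogonial genes 0 passed, with 5 at an unadjusted p under 0.05 in limma, and their changes lay between -0.69 and 0.34. The axoneme list had changes in both directions in 7 of 39 genes, at a median of 0.021, beside 6.53% of all genes called either way. Dnali1, an inner dynein arm light chain, went from 12.02, 12.01 and 12.07 to 12.52, 12.56 and 12.47 (0.48 ± 0.09, adjusted p = 0.00503). Dnal1 of the outer arm rose by 0.50, and besides Pacrgl the genes Morn2 (-1.09), Rsph3a, of the radial spoke (-0.99), and Cfap20 (-0.64) fell.

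**Figure D4:**
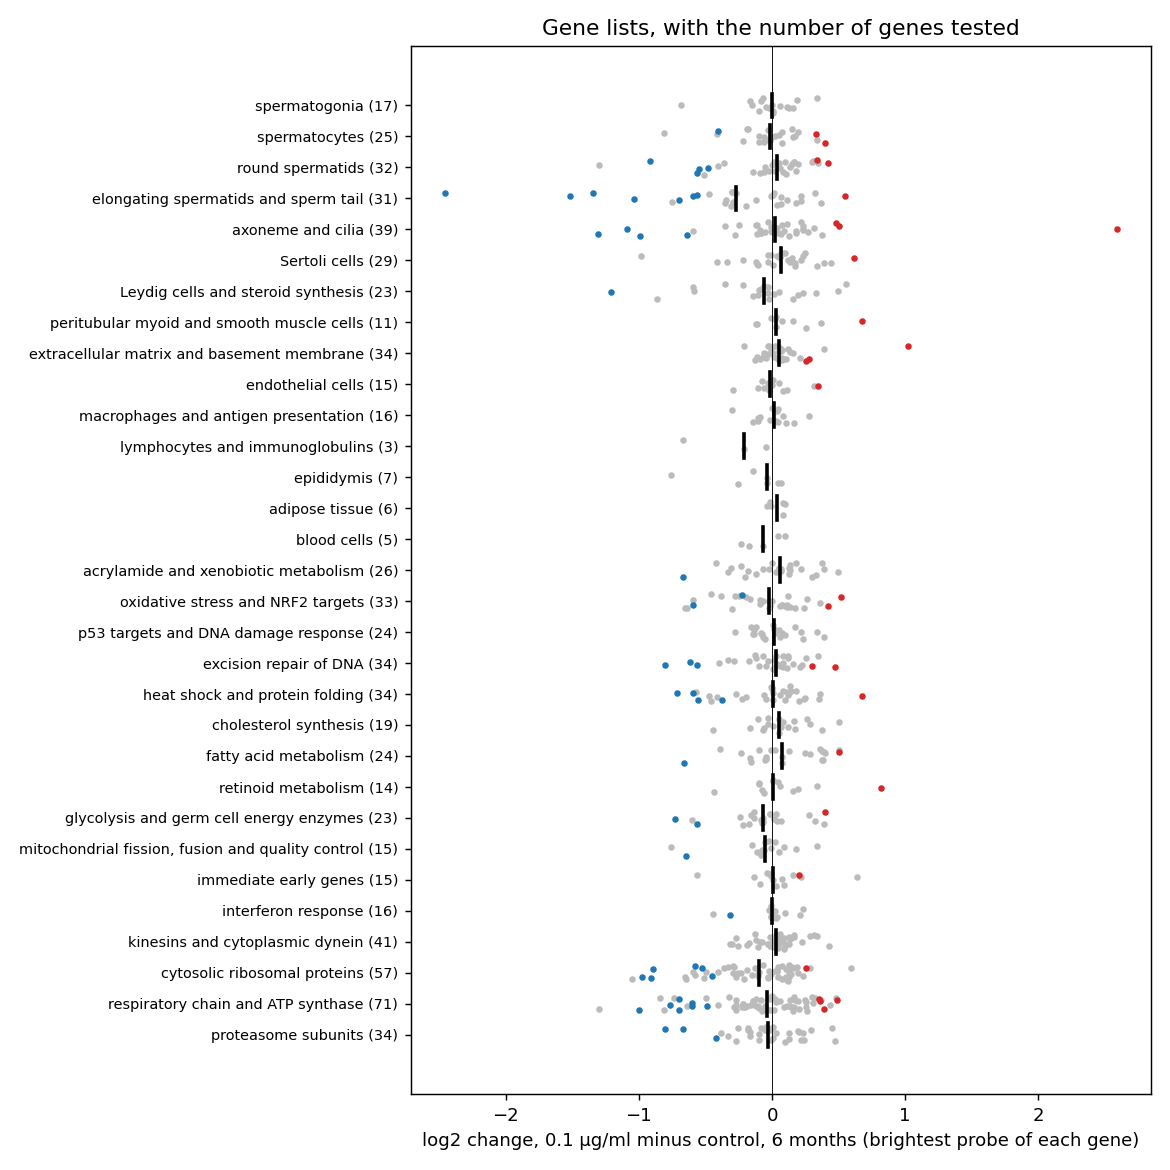
Log2 change of 0.1 µg/ml minus control at 6 months (x axis) for each tested gene of 31 lists, by its brightest probe, with rises past the adjusted threshold in red, falls in blue and other genes in grey; black bars are list medians and the number of genes tested stands beside each name. The elongating spermatid list reaches furthest to the left, with a median of -0.27.

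Genes of somatic cells were read against a share of 6.53% called in either direction over all genes (697 of 10667). Of 29 Sertoli cell genes, Dhh, the desert hedgehog signal to Leydig and myoid cells, rose. It was at 8.68, 8.95 and 8.79 in the controls and 9.37, 9.44 and 9.46 in the treated testes (0.62 ± 0.16, adjusted p = 0.021). The sex hormone-binding globulin Shbg (0.15), the follicle-stimulating hormone receptor Fshr (0.18) and the transcription factor Sox9 (0.00) did not pass. Hspb6, a small heat shock protein of smooth muscle, was the 1 riser of 11 myoid genes (0.67 ± 0.14, adjusted p = 0.00969). Of 34 matrix genes 3 rose, which were Serpinf1, the proteoglycan Lum (0.28) and the laminin chain Lama1 (0.25), and of 15 endothelial genes Vwf rose (0.34). Of 23 Leydig cell and steroid genes, Hsd3b2 fell and the others did not pass. Cyp17a1, which makes androgens, was at 0.33, Star, which carries cholesterol into the mitochondria, at 0.01, and Insl3 at 0.23. The lists of macrophages (16 genes), lymphocytes (3), epididymis (7), adipose tissue (6) and blood (5) had 0 calls in limma, and 1 gene of the blood list alone had an unadjusted p under 0.05.

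As a check of the labelled tissue, 31 of the 32 elongating spermatid genes on the array, 32 of 35 round spermatid genes and 29 of 36 Sertoli cell genes were bright enough to be tested, and 7 of 16 epididymal genes were. Replicate 1 of the control stood apart for 2 genes of other tissues. Spink8 of the epididymis was at 10.70 there, against 8.09 and 7.93 in the other controls and 7.85 to 8.44 in the treated testes. Cd52, found on lymphocytes and in the epididymis, was at 9.85 there, against 7.89 and 8.09 and, in the treated testes, 7.84 to 7.99. The other 6 tested epididymal genes did not show such a gap. Without that array 260 probes passed, and the part of these 2 genes' tissues in the results was not tested. In bulk RNA, fewer cells of a kind and less RNA in each cell cannot be told apart.

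The lists of acrylamide handling and damage response had 1, 4 and 0 calls, beside 6.53% over all genes. Of 26 genes of acrylamide and xenobiotic metabolism, Gstm5, a glutathione transferase that is abundant in the testis, fell from 14.23, 14.04 and 14.31 to 13.36, 13.61 and 13.60 (-0.67 ± 0.14, adjusted p = 0.00984). Its groups did not overlap. Ephx1, a microsomal epoxide hydrolase, was at 0.50 and did not pass. The probe of Cyp2e1 was among the dim ones left out, and with all probes fitted it was at -0.045 ± 0.064 (adjusted p = 0.8). Of 33 genes of oxidative stress, Gpx4 and the catalase Cat (-0.23) fell, and the autophagy receptor Sqstm1 (0.42) and the transaldolase Taldo1 (0.52) rose. Hmox1 (-0.17), Nqo1 (-0.02) and Gclm (0.11), well-known targets of NRF2, did not pass. Among 24 p53 targets 0 passed in limma and 7 had an unadjusted p under 0.05, with Cdkn1a at 0.23 and Mdm2 at 0.34.

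In excision repair, 3 of 34 genes fell and 2 rose, beside 2.69% and 3.84% over all genes. Aptx, which removes blocked ends at DNA breaks, went from 9.61, 9.73 and 9.70 to 8.84, 8.88 and 8.91 (-0.80 ± 0.17, adjusted p = 0.00969). Its 0.01 µg/ml arrays were at 9.73, 8.82 and 8.86. Dimmer probes of Aptx, at -0.32 and 0.045, did not pass. Polb, the gap-filling polymerase, fell by 0.62 ± 0.15 and Pcna, the clamp of replicating polymerases, fell by 0.57 ± 0.15. Parp1, which senses strand breaks, rose by 0.47 ± 0.11 and Xpc, a damage sensor of nucleotide excision repair, by 0.30 ± 0.06 (adjusted p = 0.00612). Dimmer probes of Parp1, at 0.23 and 0.13, did not pass. Of 34 heat shock and folding genes 4 fell, Hsp90aa1 (-0.71), Hspa4l (-0.59), Hspa4 (-0.55) and the endoplasmic reticulum chaperone Hspa5 (-0.38), and Hspb6 rose. None of those 4 calls held with any of the 6 arrays left out. A dimmer probe of Hsp90aa1 (-0.099) did not pass.

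Over all genes 3.84% rose and 2.69% fell, and the counts of large protein complexes are read against these shares. Of 57 cytosolic ribosomal protein genes 6 fell and 1 rose. Rps27 was at 13.29, 13.29 and 13.32 in the controls and 12.75, 12.73 and 12.69 at 0.1 µg/ml (-0.58 ± 0.10, adjusted p = 0.00342), and Rpl5 fell by 0.91 ± 0.20. Rps3a1 (-0.98), Rpl39l, a testis paralogue (-0.89), Rpl29 (-0.52) and Rpl22l1 (-0.45) fell as well, and Rpl22 rose (0.25). A dimmer probe of Rpl29 (0.03) did not pass. Ribosomal protein genes have many near-identical pseudogenes whose transcripts a probe may share. Of 71 genes of the respiratory chain and ATP synthase 7 fell and 4 rose. The falls were those of Ndufb10 (-0.995), Ndufb9 (-0.77), Sdhd (-0.70), Cox6c (-0.70), Ndufb3 (-0.60), Cox7b2 (-0.60) and Atp5l (-0.49), and the rises those of Ndufv1 (0.49), Ndufa8 (0.39), Atp5c1 (0.36) and Ndufa10 (0.36). A dimmer probe of Ndufa8 was at 0.06 and did not pass. Of 34 proteasome genes Psmd8 (-0.80), Psmd11 (-0.67) and Psmb7 (-0.42) fell. Dimmer probes of Psmd11 (-0.26) and Psmb7 (-0.34 and -0.16) did not pass.

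In intermediary metabolism, Pdhb, a subunit of pyruvate dehydrogenase, was at 10.66, 10.86 and 10.97 in the controls and 10.11, 10.11 and 10.10 in the treated testes (-0.72 ± 0.13, adjusted p = 0.00347). With Pgam2 it made 2 falls of 23 genes of glycolysis and germ cell energy supply, and Ldhc was the 1 rise. These and the list counts that follow are read beside 6.53% of all genes called in either direction. Elovl2, an elongase of the very long polyunsaturated fatty acids of sperm, fell by 0.66 ± 0.14 (adjusted p = 0.0115) and Acaa2 of mitochondrial β-oxidation rose by 0.50 ± 0.12, among 24 fatty acid genes. Of the dimmer probes of Acaa2, that at 0.44 passed and those at 0.18 and -0.38 did not. Retsat was the 1 riser of 14 retinoid genes, and Dnm1l, the mitochondrial fission GTPase, the 1 gene of 15 of mitochondrial dynamics that fell (-0.65). Dimmer probes of Retsat (0.32) and Dnm1l (-0.05) did not pass. Of 15 immediate early genes Zfp36 rose (0.20), and of 16 interferon genes Bst2 fell (-0.31). Cholesterol synthesis (19 genes) and kinesins with cytoplasmic dynein (41 genes) had 0 calls in limma, with 1 and 5 at an unadjusted p under 0.05. Many of the list counts moved with the array of the study that stands apart from the rest, replicate 3 of 0.001 µg/ml at 1 month, whose mean correlation with the other arrays was 0.844. It enters through the pooled spread. Without it 2852 probes passed, and without replicate 1 of 0.01 µg/ml at 6 months 1408 did. Without the array that stands apart 1193 genes rose (11.2%) and 883 fell (8.28%), with 14 falls and 3 rises in the elongating spermatid list and 16 falls and 4 rises in the ribosomal list.

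The other doses at 6 months share the control arrays, so their values are given side by side only. Over the 14 largest falls at 0.1 µg/ml, the median difference from control was -0.15, -0.72, -1.16 and -1.52 with 0.001, 0.01, 1 and 10 µg/ml. For the 14 largest rises it was 0.14, 0.33, 0.49 and 0.63 in the same order. Pacrgl stood at -0.17, -0.72, -1.27 and -1.51 at these doses. Kcnab2 stood at 0.03, 0.28, 0.34 and 0.51, each below its 1.15 at 0.1 µg/ml. The low value at 0.001 µg/ml and the high values from 0.1 µg/ml on lie in different runs of array numbers. Each value at 0.01 µg/ml averages replicate 1, in the run of the controls, with replicates 2 and 3, in the run of 0.1 µg/ml. Of the 14 largest falls, replicate 1 lay on the control side for 14 and both others on the treated side for 13. For the 14 largest rises these counts were 12 and 9. The parts of dose and of the run in the values at 0.01 µg/ml cannot be told apart.

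The same dose was measured at 1 month (2 treated arrays, 3 controls, mice of 3 to 6 months) and 12 months (3 treated arrays, 2 controls, mice of 16 to 17 months). None of these arrays is shared with the comparison at 6 months. With limma, 1 probe passed at 1 month (0.00649%) and 6 at 12 months (0.0389%). The 929 probes were chosen by the change at 6 months, which is part of its difference from 12 months, so an overlap was favoured. The difference between the change at 6 and at 12 months passed for 857 probes (5.56%), 518 of them among the 929. Leaving out the array of the study with the low correlation gave 2711, and leaving out the first 0.01 µg/ml testis of 6 months gave 1336. Among the arrays of 12 months, leaving out the first or second control gave 229 or 409, and leaving out the first 0.1 µg/ml testis gave 413. Of the 929, 127 had the same sign at 12 months (13.7%), against 36.0% of all tested probes. The called rises had a median of -0.15 at 12 months and the called falls one of 0.13. Serpinf1 was 1.02 at 6 months and -0.89 at 12 months (adjusted p = 0.0028 for the difference), and Kcnab2 1.15 and -0.74 (adjusted p = 0.0169). Tnp2 was -1.34 and 0.34 (adjusted p = 0.0239), Pacrgl -1.30 and 0.17 (adjusted p = 0.00712), and Hspb6 0.67 and -0.55 (adjusted p = 0.00248). The median control level of Tnp2 was 11.76 at 6 months and 9.99 at 12 months, against 10.47 and 10.35 in the treated testes. For Pacrgl it was 10.26 and 8.81 in the controls and 8.81 and 9.01 in the treated testes. For Tnp2 and Pacrgl the controls thus moved more than the treated testes. Kcnab2 moved in both, from 8.85 to 9.675 in the controls and from 9.82 to 9.13 in the treated testes.

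At 1 month, 799 of the 929 had the sign they had at 6 months (86.0%), against 66.6% of all tested probes. The called rises had a median of 0.11 and the called falls of -0.19 then. The difference between 6 and 1 month passed for 0 probes with limma, and 750 had an unadjusted p under 0.05. Tnp2 was at -0.85 ± 0.33, Glrx2 at -0.96, Ptpre at -0.99 and Prm1 at 0.55 at 1 month. Lrrc18 was at -1.18 and Ncoa4 at -0.42, opposite in sign to 6 months.

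The median intensity before normalization differed between treated and control arrays at each time, and in the same pattern as these signs. At 1 month it was 182 and 214 in the 2 controls with a usable value and 150 and 160 in the treated arrays, at 6 months 155 to 167 against 109 to 127, and at 12 months 124 and 141 in the controls against 139 to 157. The treated arrays were thus the dimmer ones at 1 and 6 months and, apart from an overlap at 139 to 141, the brighter ones at 12 months. At each time the treated arrays also lay in a later run of array numbers than the controls. The part of intensity and array number in the signs was not tested.

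**Figure D5:**
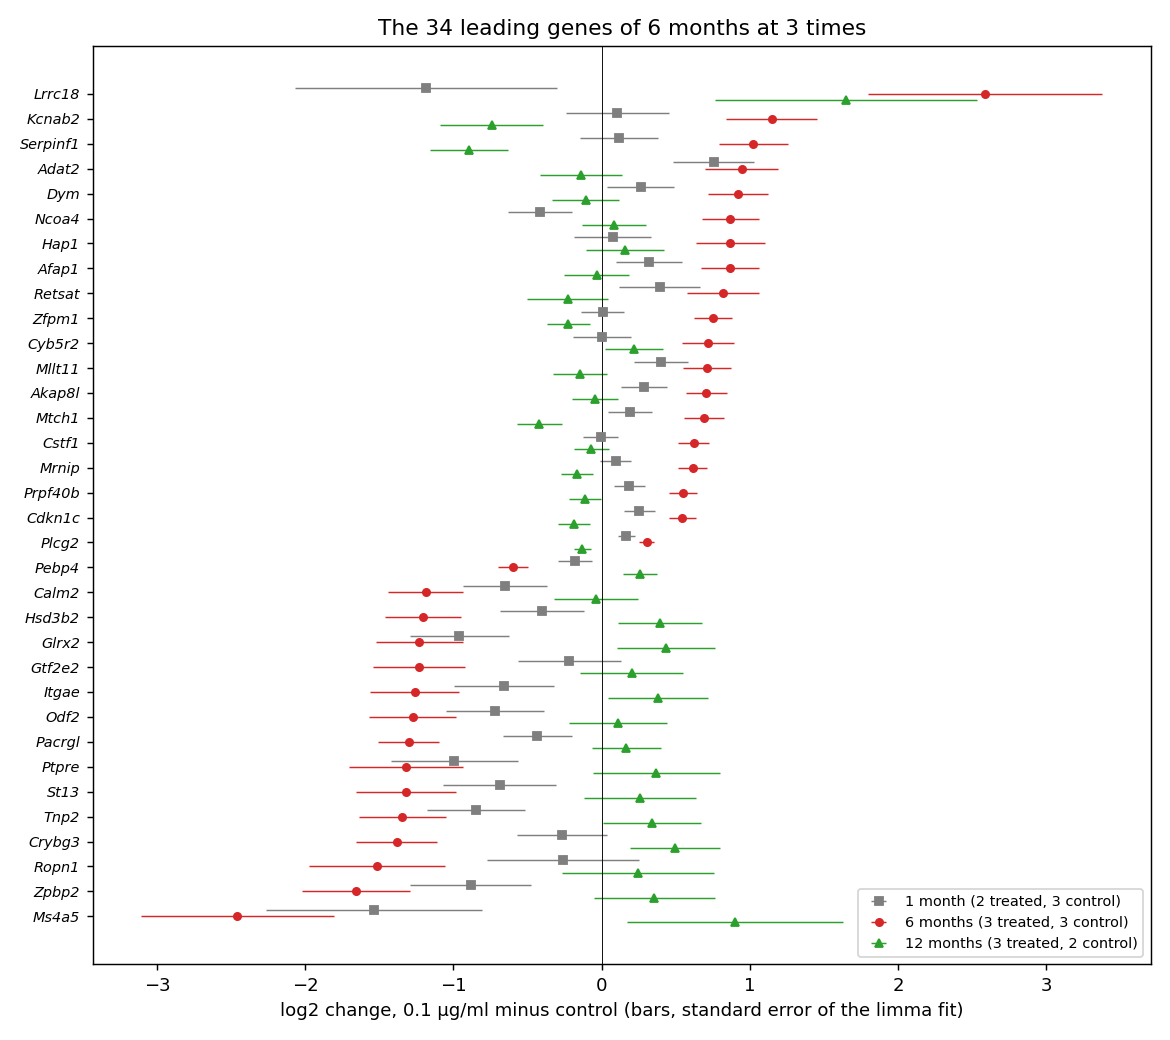
Log2 change of 0.1 µg/ml minus control (x axis) with its standard error (bars) for the 34 leading genes of 6 months at 1 month (grey squares), 6 months (red circles) and 12 months (green triangles). At 12 months 13 of the 14 largest falls lie above 0 and 10 of the 14 largest rises below 0.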

How the data were processed

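Total RNA of 46 testes was measured on 1 array each. The authors deposited processed values on the log2 scale, made with lumi per the submitters' processing notes, with settings not given in the sources used here, and non-normalized intensity values on a linear scale. Among 45 deposited intensity columns used, 33 did not follow the order of the probe names and were restored by rank. Intensities served for their medians and 1 alternative, and 1 further column was not used. Of 25697 probes, 23978 had 1 symbol from the platform annotation and 1719 none. The dimmest 40% by mean were left out. The 15419 others were fitted with limma 3.58.1 in R 4.3.3, with 18 group means, a spread pooled over all arrays and two-sided p-values adjusted over all tested probes (Benjamini-Hochberg, threshold 0.05). The fit was tested on simulated arrays that varied independently, with no step between runs of array numbers, so this test does not bear on such a step. A "±" gives the standard error of the fit.

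Genes named were the 14 largest rises and 14 largest falls among called probes with a symbol, the 8 smallest p, up to 5 members of each list by p, and a few from earlier results. Unnamed transcripts were skipped. Other called list members (Clgn, Oaz3, Cfap20, Rpl39l, Rps3a1, Cox6c, Cox7b2, Sdhd, Atp5l, Atp5c1 and Ndufa10) and the list members given as not passing were chosen after their values were seen. The comparison, the gene lists and the tests were chosen with earlier results of these data known. Alternatives were other filters, samples, normalizations, variance priors, and blocks by array number or replicate number.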

Additional observations from a re-analysis of the deposited data

Results flagged for a closer look

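The change with 0.1 µg/ml differed between 6 and 12 months for 857 probes by the interaction test (limma, adjusted p under 0.05). The differences below are the log2 change at 6 months minus that at 12 months, and each of these leading genes passed that test. They were chosen by their change at 6 months, which is part of this difference, so passing was favoured by that choice. Among the rises the difference was 1.89 for Kcnab2, 1.92 for Serpinf1, 1.02 for Dym, 0.977 for Zfpm1, 0.857 for Mllt11, 0.749 for Akap8l and 1.11 for Mtch1. It was 0.782 for Mrnip, 0.693 for Cstf1, 0.434 for Plcg2, 0.663 for Prpf40b and 0.732 for Cdkn1c. Among the falls it was -3.36 for Ms4a5, -2.01 for Zpbp2, -1.88 for Crybg3, -1.69 for Tnp2, -1.47 for Pacrgl, -1.64 for Itgae, -1.66 for Glrx2, -1.6 for Hsd3b2 and -0.86 for Pebp4. With the run of array numbers as a fixed term, 0 probes passed this test. For Tnp2, Pacrgl and Hsd3b2 it was mainly the control level that differed between these months. The median of Hsd3b2 was 10.77 and 9.24 in the controls at 6 and 12 months, and 9.52 and 9.80 in the treated testes. Ms4a5 differed in both, at 11.70 and 8.98 in the controls and 8.82 and 10.2 in the treated testes. Groups of 2 or 3 arrays are too small for the test of single outlying samples that was planned.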

How the results depend on the processing

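The arrays are few, and treated and control arrays lie in different runs of array numbers, which limits every value above. For 0.1 µg/ml against control at 6 months, the count of 929 probes became 2629 with the spread of the 6 arrays alone, 1734 with that of the 18 arrays of 6 months, 2852 without the array that stands apart and 0 with the run as a fixed block. With the run as a random block it was 962, and 0 with that block and without the array that stands apart (2419 at an unadjusted p under 0.05), a setting chosen after seeing the data. Leaving out each of the 46 arrays gave 192 to 2852. The replicate block gave 842. Same-numbered pairs had correlations of 0.065, 0.081 and -0.075, so the numbers were not taken to pair the samples. The other alternatives gave 685 to 965.

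For the difference between 6 and 12 months, the 857 became 2818 with only the arrays compared, 2250 with only the months compared, 2711 without the array that stands apart, 0 with the fixed block, 287 with the random block without that array and 565 with the replicate block. Leaving out single arrays gave 229 to 2711. Besides those named above, the counts were 527 and 506 when control replicate 1 or 3 of 6 months was left out, 535 and 533 for treated replicate 1 or 2 of 6 months, and 1336 for the first 0.01 µg/ml replicate of 6 months. The difference between 6 and 1 month, with 0 calls, had 74 with only the arrays compared and 0 to 4 with single arrays left out. The comparison with replicates 2 and 3 of 0.01 µg/ml, with 0 calls, had 2 with only the arrays compared and 0 to 3 with single arrays left out.

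With the run as a fixed block, where the step between the runs of control and treated arrays is set by replicate 1 of 0.01 µg/ml alone (929 became 1408 without that array, with no block), 46 of 98 called probes of the named genes changed sign, and 0 did so under the other alternatives run for them, among which only the 6 arrays compared were left out singly. The falls then came out at 0.51 for Zpbp2, 0.47 for Ropn1, 0.042 for Tnp2, 0.28 for St13, 0.83 for Ptpre, 0.45 for Odf2, 0.42 for Gtf2e2, 0.15 for Glrx2, 0.42 for Calm2, 0.061 for Tcte3, 0.086 for Crem, 0.060 for Spaca1, 0.57 for Zpbp2 by its brightest probe, 0.31 for Spz1, 0.087 for Aptx, 0.19 for Polb, 0.082 for Pcna, 0.30 for Hspa4l, 0.28 for Hspa5, 0.22 for Hsp90aa1, 0.53 for Hspa4, 0.12 for Elovl2, 0.022 for Pgam2, 0.023 for Dnm1l, 0.21 for Rpl5, 0.018 for Rpl22l1, 0.16 for Rpl29, 0.42 for Ndufb10, 0.28 for Ndufb9, 0.30 for Psmd11, 0.22 for Clgn, 0.12 for Oaz3, 0.36 for Cfap20, 0.52 for Rpl39l, 0.50 for Rps3a1, 0.16 for Cox6c, 0.018 for Atp5l, 0.32 for Sdhd and 0.29 for Cox7b2. The rises came out at -0.059 for Mtch1, -0.19 for Ldhc, -0.10 for Tssk6, -0.30 for Prm1, -0.0055 for Hspb6, -0.062 for Sqstm1 and -0.24 for Ndufa10. The cause was not tested.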
